A study of Oryza sativa with 9 samples.

Results

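Jasmonate synthesis was followed through 8 genes of the rice leaf (Oryza sativa), picked by their RAP identifiers. They are the lipoxygenases LOX7 (Os08g0508800) and LOX8 (Os08g0509100), the allene oxide synthases AOS1 (Os03g0767000) and AOS2 (Os03g0225900), the allene oxide cyclase AOC (Os03g0438100), the 12-oxophytodienoate reductases OPR1 (Os06g0216300) and OPR7 (Os08g0459600), and the conjugating enzyme JAR1 (Os05g0586200). All 8 were found among the 37858 genes of the table. The 9 libraries came from leaves taken 85 days after sowing and fall into 3 genotypes of 3 libraries each. In the mutant, the caffeic acid O-methyltransferase gene OsCOMT carries a mutation whose type the labels do not give. OE plants overexpress OsCOMT from a promoter that is not named. WT is the wild type. The series title ties the enzyme to melatonin synthesis and to leaf ageing. All groups carry the same age label, although the titles of the OE and WT samples end in a number with no explanation that the mutant titles lack. No other allele or treatment is given for any group, and the labels do not say how many plants, lines or clones stand behind the libraries, nor the hour of sampling. Nothing states that the libraries are separate plants, so each p-value reflects how far the deposited libraries scatter, and that scatter may be technical.

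Jasmonates are hormones made from the linolenic acid of plastid membranes. A lipoxygenase adds oxygen to the fatty acid, allene oxide synthase turns the product into an unstable epoxide, and allene oxide cyclase closes its ring to give 12-oxophytodienoic acid (OPDA). An OPDA reductase of the peroxisome and rounds of beta-oxidation then yield jasmonic acid, which JAR1 joins to isoleucine to form the active hormone. That conjugate brings the receptor COI1 together with JAZ repressors, which are destroyed. In leaves the hormone is known for its part in responses to wounding and herbivores and in senescence.

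Levels are given as FPKM, in which gene length is divided out, so that 1 gene can be set against another. Library totals were 10674819 to 11809530 reads. The 3 mutant libraries stood apart from the other 6 on the first principal component, which held 72.2% of the variance of log2(FPKM + 1). On the second component OE replicate 1 lay away from its group, at 2.51, against -31.8 and -29.0 for the other OE libraries and 17.4 to 22.7 for WT. OsCOMT itself was at 1945 to 3162 FPKM in OE and 228 to 259 FPKM in WT, and at 226 to 458 FPKM in the mutant, so the transcript was high where it is labelled as overexpressed and does not check the mutant label, since a mutation need not lower a transcript. Among 5 leaf markers 0 were at 0, and their summed level, led by the chlorophyll-binding protein CAB1R, was 3186 to 3744 FPKM in the mutant, 3119 to 5027 in OE and 2925 to 4289 in WT. CAB2R, another chlorophyll-binding protein, was at 290 to 623 FPKM in the mutant, 921 to 1951 FPKM in OE and 463 to 1794 FPKM in WT, and was the 1 leaf marker of 5 that passed, as lower in the mutant against OE (log2 fold change -1.78, limma adjusted p = 0.016). Tests used limma on log2(FPKM + 1) in 1 fit of all libraries, for the 19850 genes that averaged 1 FPKM or more. A gene passed at a Benjamini-Hochberg adjusted p under 0.05. AOS1 and AOS2 lay below that level, which leaves 6 genes tested.

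In the mutant both lipoxygenase genes fell sharply, LOX7 by 13.7-fold and LOX8 by 4.74-fold in mean FPKM against WT, while none of the 4 other tested members (AOC, OPR1, OPR7 and JAR1) passed the test against WT. Of the 6 tested genes, 0 rose, 2 fell and 4 did not pass. Over all tested genes 42% passed in this comparison and 22.4% passed as lower, so 2 of 6 is a share near the background. The median log2 fold change of the 6 was 0.00, and that of all tested genes was -0.01. Against OE, 3 of the 6 were lower in the mutant, LOX7, LOX8 and AOC, where 43.4% of all genes passed, 22.9% as lower and 20.5% as higher.

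**Figure D1:**
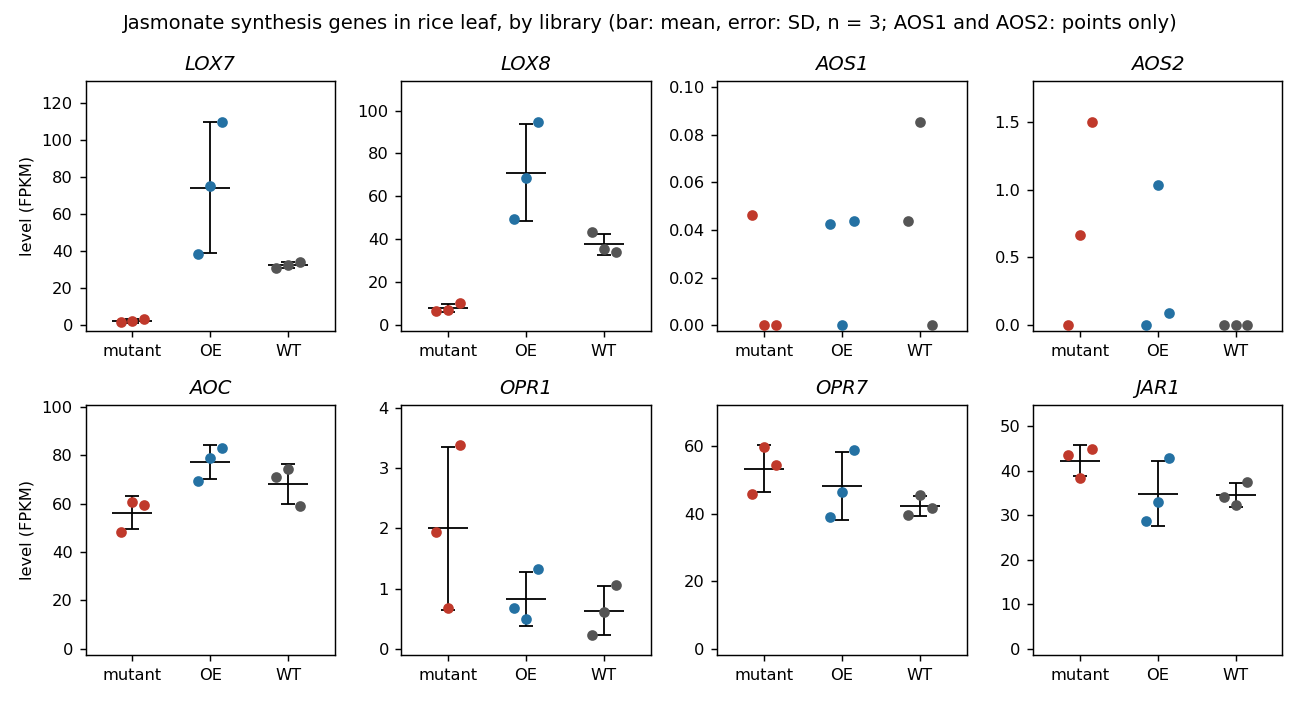
Level in FPKM (y axes, linear, each with its own range) of the 8 jasmonate synthesis genes in the mutant, OE and WT libraries. Points are libraries, horizontal bars are means and error bars SD (n = 3), with points only for AOS1 and AOS2; the mutant libraries lie below all others for LOX7 and LOX8, and AOS1 and AOS2 are close to 0 throughout.

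LOX7 encodes a plastid lipoxygenase of the first step. It was at 1.46, 2.23 and 3.39 FPKM in the mutant libraries, at 38.4, 75.1 and 109.6 FPKM in OE and at 31.0, 32.2 and 34.1 FPKM in WT. The 3 groups did not overlap, with every mutant library lowest and every OE library highest. These mutant levels rest on 50, 75 and 119 reads, and the lowest of them has an exact Poisson 95% interval of 1.08 to 1.92 FPKM, for counting error alone. Relative to WT, the mutant's log2 fold change came to -3.35 (SE 0.33, limma adjusted p = 5.9e-05), and 96 of the 19850 tested genes, 0.484%, had a lower one. Against OE it was -4.40 (SE 0.33, limma adjusted p = 1.2e-05), with 33 genes lower. In whole leaves, fewer cells of a type cannot be told apart from less RNA per cell. The mean level was 2.36 ± 0.974 FPKM in the mutant, 74.4 ± 35.6 FPKM in OE and 32.4 ± 1.58 FPKM in WT (SD, n = 3 each).

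LOX8, a lipoxygenase whose gene lies near LOX7 on chromosome 8, had 6.69, 7.04 and 10.1 FPKM in the mutant, 49.6, 68.8 and 94.8 FPKM in OE and 43.3, 35.6 and 34.1 FPKM in WT. Here too the 3 groups did not overlap. Its log2 fold change in the mutant was -2.12 against WT (SE 0.23, limma adjusted p = 8.8e-05) and -2.98 against OE (SE 0.23, limma adjusted p = 1.2e-05). Lower values than these were held by 338 and 149 of the tested genes. How reads shared by related lipoxygenases were assigned is not given in the sources used here, so the split of reads between the pair is less certain than their sum. That sum was 8.15 to 13.5 FPKM in the mutant, 88.0 to 204 FPKM in OE and 67.8 to 74.3 FPKM in WT. The numbering of rice lipoxygenases also differs between sources: the RefSeq table used for the names holds a LOX8 and a LOX9 next to each other in this region of chromosome 8 and no LOX7. By gene order its LOX8 could be either of the 2 genes described here, so the RAP identifiers are what fix these genes.

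Markers outside the pathway differed between the same genotypes. Both senescence markers rose in the mutant, against WT and against OE. One of them is SGR, whose product starts the loss of chlorophyll, at 227 to 322 FPKM in the mutant, 33.6 to 80.1 FPKM in OE and 23.2 to 115 FPKM in WT. The summed level of the 2 was 320 to 434 FPKM in the mutant, 77.3 to 135 in OE and 63.4 to 184 in WT. The clock gene CCA1, whose identifier follows that of OsCOMT, was at 352 to 464 FPKM in the mutant, 7.06 to 8.40 FPKM in OE and 6.89 to 9.20 FPKM in WT. Of 6 panicle markers 1 was at 0 in every library, 3 with that 1 included averaged under 1 FPKM, and of the 3 tested, 1 rose in the mutant against WT and 3 against OE, where 19.6% and 20.5% of all tested genes were higher. Their summed level was 107.5 to 134 FPKM in the mutant, 87.5 to 94.7 in OE and 101 to 128 in WT. Most of it came from 1 gene, MADS14, at 97.0 to 117.5 FPKM in the mutant, 82.8 to 88.0 in OE and 93.6 to 115 in WT. The 1 root marker was at 0 throughout. The part of these differences in the lower lipoxygenase levels was not tested.

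In the deposited values LOX7 fell further than LOX8. That difference depends on how reads were split between these related genes, which is less certain than their sum. The ratio of LOX7 to LOX8 within a library, which no scaling of the library can change, was 0.218, 0.317 and 0.336 in the mutant, 0.774, 1.09 and 1.16 in OE and 0.715, 0.907 and 1.00 in WT. Every mutant library was below every other library. On the log2 scale the mean ratio was -1.81 ± 0.337 in the mutant and -0.21 ± 0.25 in WT (SD, n = 3 each), a difference of -1.60, for which the exact two-sided permutation test gave p = 0.1, the smallest p that 3 against 3 libraries allow. This ratio was picked after the levels were seen, from 15 possible pairs of the 6 tested genes. The ratios of 10 of the 15 pairs did not overlap between the mutant and WT. All of these hold LOX7 or LOX8 except AOC over OPR7, so the count mostly restates the fall of the lipoxygenases. No share over other gene pairs was computed.

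The share of LOX7 and LOX8 in the summed FPKM of the 8 genes also differed between genotypes. Other lipoxygenase genes are not in this sum, and the share follows from the levels given above rather than being a separate result. LOX7 and LOX8 together gave 5.47% to 7.64% of the summed FPKM of the 8 genes in the mutant, 38.9% to 52.3% in OE and 30.8% to 33.9% in WT. The sum of the 8 was 148 to 177 FPKM in the mutant, 226 to 391 FPKM in OE and 207 to 221 FPKM in WT. The groups did not overlap in the share or in the sum. The other 6 genes together were at 140, 160 and 163 FPKM in the mutant, 138, 160 and 186 FPKM in OE and 145, 153 and 139 FPKM in WT, and here the groups overlapped.

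AOS1 and AOS2 encode the enzyme that follows the lipoxygenases, a cytochrome P450 of the CYP74 family. AOS1 had 1, 0 and 0 reads in the mutant libraries, 1, 0 and 1 in OE and 1, 2 and 0 in WT. It was thus at 0 to 0.0855 FPKM in all 9 libraries, at or under a floor of 3 reads per library, which corresponds to 0.127 to 0.141 FPKM. Nothing can be said of a difference between genotypes at that depth. AOS2 had 0, 14 and 33 reads in the mutant, 0, 22 and 2 in OE and 0 in each of the 3 WT libraries. In FPKM these are 0, 0.665 and 1.50 in the mutant and 0, 1.03 and 0.0888 in OE. AOS2 reads were thus seen in 2 mutant libraries and 2 OE libraries and varied within a genotype by more than their counting intervals (22.7 to 46.3 reads against at most 3.69 in the highest and the lowest mutant library). Neither gene was tested, and the genotypes overlapped for both, apart from the absence of AOS2 reads in WT, which mutant replicate 1 and OE replicate 1 shared.

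AOC encodes the cyclase that makes OPDA, the enzyme missing in the jasmonate-deficient rice mutant hebiba. It had the highest mean of the 8 genes in each genotype, with 48.4, 60.9 and 59.5 FPKM in the mutant, 69.4, 78.6 and 83.1 FPKM in OE and 71.0, 74.3 and 58.8 FPKM in WT. All mutant libraries were below all OE libraries, whereas WT overlapped with each of the other groups. Between the mutant and OE, AOC was lower in the mutant, at -0.45 on the log2 scale (SE 0.12, limma adjusted p = 0.016). That call is narrow, at adjusted p = 0.055 without mutant replicate 1 and 0.053 without OE replicate 3. Against WT the log2 fold change was -0.27 (95% interval -0.55 to 0.01, limma adjusted p = 0.11), and it passed without WT replicate 3 (-0.37, adjusted p = 0.046).

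OPR7 encodes the reductase that acts on the natural isomer of OPDA in rice, and OPR1 a related reductase of a group that is not assigned to hormone synthesis. OPR7 was at 45.8, 59.5 and 54.2 FPKM in the mutant, 39.1, 46.5 and 58.9 FPKM in OE and 39.6, 45.5 and 41.8 FPKM in WT. The mutant libraries were all above WT, by a narrow margin, and overlapped with OE. Its log2 fold change in the mutant was 0.32 against WT (95% interval -0.02 to 0.65, limma adjusted p = 0.12) and 0.15 against OE (95% interval -0.18 to 0.49, limma adjusted p = 0.44). An increase of up to 1.57-fold over WT is thus within the interval, and so is no change.

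OPR1 was a low gene, at 1.94, 0.678 and 3.37 FPKM in the mutant, 0.669, 0.488 and 1.33 FPKM in OE and 0.230, 0.618 and 1.05 FPKM in WT. These rest on 11 to 57 reads in the mutant, 8 to 23 in OE and 4 to 18 in WT, and the groups overlapped in every comparison. The log2 fold change in the mutant was 0.80 against WT (SE 0.35, limma adjusted p = 0.092) and 0.63 against OE (SE 0.35, limma adjusted p = 0.17). It passed as higher without mutant replicate 2, the lowest mutant library, at 1.17 against WT (adjusted p = 0.015) and 1.00 against OE (adjusted p = 0.028). RefSeq places more than one OPR gene with the name OPR1 in this stretch of chromosome 6, so reads could be shared with close copies.

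JAR1, the enzyme that makes the active isoleucine conjugate, was at 43.6, 38.4 and 44.8 FPKM in the mutant, 28.7, 33.0 and 42.9 FPKM in OE and 34.0, 32.3 and 37.6 FPKM in WT. The mutant libraries were all above WT and overlapped with OE. The log2 fold change in the mutant was 0.28 against WT (95% interval -0.03 to 0.59, limma adjusted p = 0.14) and 0.29 against OE (95% interval -0.03 to 0.60, limma adjusted p = 0.12). The comparison with OE passed without OE replicate 3, the highest OE library for this gene (0.44, adjusted p = 0.015). Counting those that missed the test, 4 of the 6 tested genes did not overlap between the mutant and WT, LOX7 and LOX8 lower and OPR7 and JAR1 higher, where 55.4% of all tested genes did not overlap, 29.4% lower and 26% higher. Between the mutant and OE it was 3 of 6, where 52.5% of all genes did not overlap and 27.1% did so as lower.

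**Figure D2:**
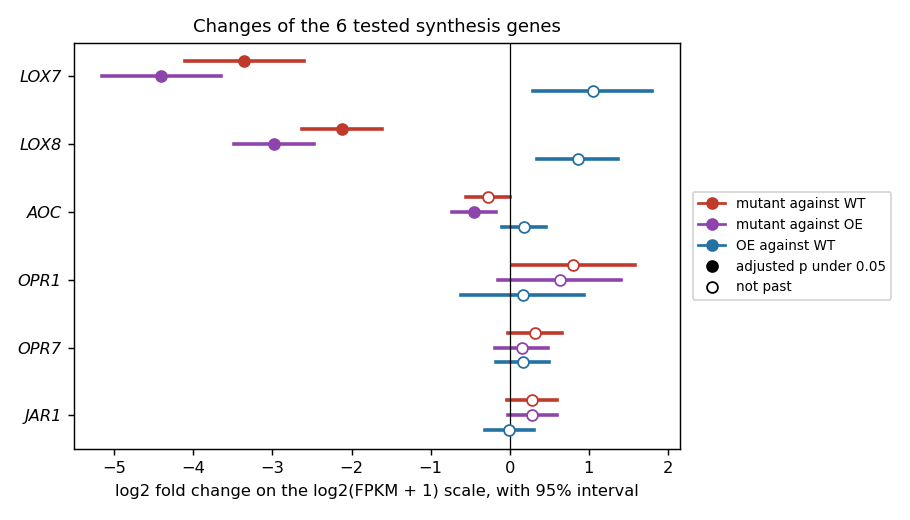
Log2 fold change on the log2(FPKM + 1) scale (x axis) of the 6 tested jasmonate synthesis genes in 3 comparisons, with 95% intervals from limma. Filled points passed at adjusted p under 0.05: LOX7 and LOX8 in both comparisons of the mutant, and AOC in the mutant against OE.

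The ratio of AOC to OPR7 did not overlap between the mutant and either other genotype. By level, AOC in the mutant overlapped with WT and OPR7 with OE, and neither gene passed against WT. AOC was 1.06, 1.02 and 1.10 times OPR7 in the mutant libraries, 1.78, 1.69 and 1.41 times in OE and 1.79, 1.64 and 1.41 times in WT. In the mutant the pair was at about the same level, while in OE and WT AOC was the higher in every library. The mean log2 ratio was 0.08 ± 0.0509 in the mutant, 0.70 ± 0.176 in OE and 0.68 ± 0.176 in WT (SD, n = 3 each). The difference was -0.60 between the mutant and WT and -0.61 between the mutant and OE, each at p = 0.1 by the exact two-sided permutation test, the smallest it allows. This pair, too, was picked after the values were seen. Groups that do not overlap always reach this p, so it adds nothing to the separation.

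**Figure D3:**
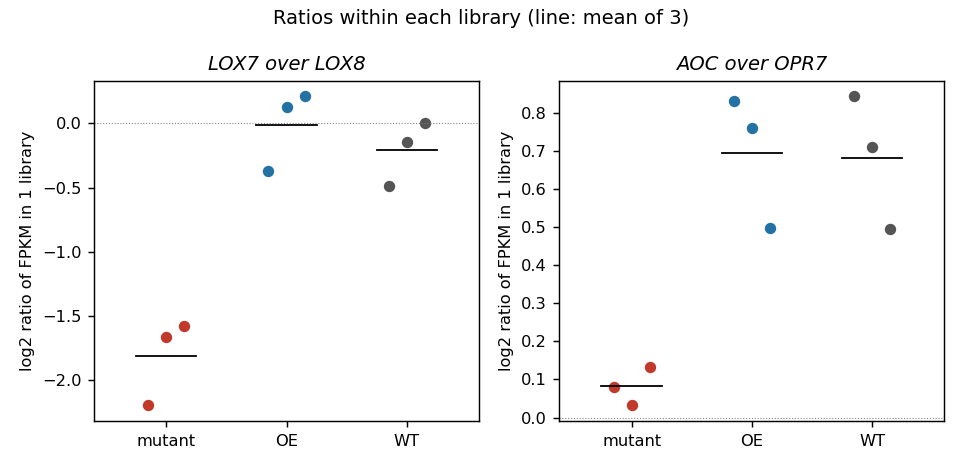
Log2 ratio of the FPKM of 2 genes within each library (y axes), for LOX7 over LOX8 and AOC over OPR7 in mutant, OE and WT. Points are libraries and lines the mean of 3; the mutant libraries lie below all OE and WT libraries in both panels.

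The order of the genes by level changed with genotype. In the mutant it ran AOC, OPR7, JAR1, LOX8, LOX7, OPR1, AOS2, AOS1, and the lipoxygenases were separated from JAR1 by a gap. In OE, AOC was followed by LOX7, LOX8, OPR7 and JAR1, and each of these overlapped with its neighbour. In WT, AOC was separate from OPR7. From there OPR7, LOX8 and JAR1 each overlapped with the next, down to LOX7, which was separate from OPR1. LOX7 was above 43.8% of the 30062 genes with any read in the mutant, 94.3% in OE and 84.0% in WT. JAR1 was above 87.9%, 85.1% and 85.0% in the same genotypes.

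In OE the lipoxygenases were the only members of the 8 whose libraries were all above WT. The mean of LOX7 was 2.29-fold and that of LOX8 1.89-fold that of WT, and neither passed. The log2 fold change was 1.05 for LOX7 (95% interval 0.30 to 1.80, limma adjusted p = 0.33, unadjusted p = 0.011) and 0.86 for LOX8 (95% interval 0.35 to 1.37, limma adjusted p = 0.24, unadjusted p = 0.0039). With limma 0 of the 6 tested genes passed, and likewise 0 with voom on reads recovered from the FPKM, while for 2 the unadjusted p was under 0.05. Over all genes 0.232% passed, a count of 46 that was 71 without OE replicate 1 and 27 without WT replicate 1, and 10.1% had an unadjusted p under 0.05. Groups did not overlap for 2 of the 6, where 16.4% of all genes did not overlap and 7.6% did so as higher. OE libraries differed widely among themselves, with the highest LOX7 level 2.86 times the lowest, against 1.10 times in WT. Without OE replicate 1 the log2 fold change of LOX7 was 1.46 with a limma adjusted p of 0.051, and without OE replicate 3 it was 0.71 with 0.55.

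The remaining genes showed smaller differences in OE. AOC had a log2 fold change of 0.18 (95% interval -0.10 to 0.46), OPR7 of 0.17 (95% interval -0.17 to 0.50) and JAR1 of -0.01 (95% interval -0.32 to 0.31). OPR1 had one of 0.17 with a wide interval of -0.61 to 0.94. All 4 overlapped with WT (limma adjusted p = 0.67 to 0.99). The comparisons of the mutant and of OE with WT share the WT libraries, and the direct test between the mutant and OE is the one given above.

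The OE libraries differed from each other in a similar order across the tested members. OE replicate 3 was the highest OE library for 6 of the 6 tested genes, and OE replicate 1 the lowest for 5, with OE replicate 2 lowest for OPR1. The same library was highest for 9 of 9 tested JAZ repressors, which are themselves induced by jasmonate. Over all tested genes OE replicate 3 was the highest OE library for 39.7%, and OE replicate 1 the lowest for 39%. JAZ8 shows the contrast, with 3.02, 3.85 and 21.6 FPKM in OE, against 4.30, 4.63 and 3.32 FPKM in WT. JAZ12 had 2.20, 6.62 and 24.9 FPKM in OE and 1.32, 3.04 and 1.54 FPKM in WT. SGR was also highest in OE replicate 3, at 80.1 FPKM, against 37.7 and 33.6 FPKM in the other OE libraries, and its part in this order was not tested. The read total of OE replicate 3, 11412304, lay between those of the other OE libraries. The mutant and WT did not share this match of synthesis and JAZ genes. Mutant replicate 3 was the highest mutant library for 4 of 6 synthesis genes and the lowest for 8 of 9 JAZ genes. WT replicate 3 was the highest WT library for 3 of 6 and the lowest for 7 of 9. Over all tested genes, mutant replicate 3 was highest for 38.9% and lowest for 27.6%, and WT replicate 3 for 37.8% and 32.5%.

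**Figure D4:**
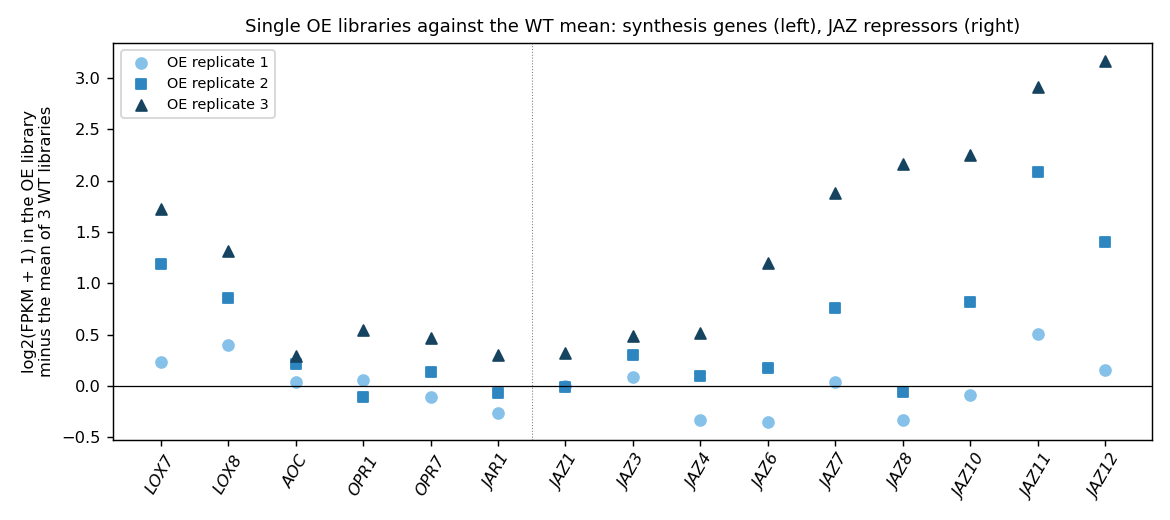
Log2(FPKM + 1) of each OE library minus the mean of the 3 WT libraries (y axis), for the 6 tested synthesis genes and the 9 tested JAZ repressors (x axis). OE replicate 3 is the highest point for all 15 genes shown, and OE replicate 1 lies between -0.35 and 0.50 for each of them.

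Across the 9 libraries LOX7 was most like LOX8 among the tested genes of the pathway lists, with a Pearson r of 0.99 on log2(FPKM + 1). AOC was also most like LOX8 (r = 0.86), and OPR1 most like JAR1 (r = 0.79). OPR7 was most like JAZ12 (r = 0.87) and JAR1 most like JAZ4 (r = 0.86). These values describe 9 libraries that fall into separate groups, and the mutant sets much of them. Within the 6 OE and WT libraries the same pairs had an r of 0.95, 0.79, 0.65, 0.96 and 0.88 in that order. LOX7 and OPR7 differed in this respect, with an r of -0.28 over the 9 libraries and 0.86 over the 6.

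Further along the pathway, receptor genes moved in opposite directions in the mutant. Of 4 genes in the receptor list, which holds 3 COI receptor genes and a transcription factor that acts downstream, 1 rose and 2 fell against WT, and likewise against OE. The shares over all tested genes were 19.6% higher and 22.4% lower against WT, and 20.5% higher and 22.9% lower against OE. The list's median log2 fold change was -0.21 against WT. COI1a, an F-box receptor of the conjugate, was at 69.8, 66.1 and 71.1 FPKM in the mutant, 46.3, 42.0 and 40.7 FPKM in OE and 47.4, 50.8 and 47.0 FPKM in WT. It rose by 0.50 against WT (SE 0.08, limma adjusted p = 0.00076). Its relative COI2 was lower in every mutant library, at 23.1, 27.0 and 28.1 FPKM in the mutant, 41.8, 43.9 and 42.3 FPKM in OE and 43.8, 47.0 and 46.0 FPKM in WT (log2 fold change against WT -0.79, SE 0.09, limma adjusted p = 0.00011). COI1b fell by 0.42 on the log2 scale against WT (SE 0.10, limma adjusted p = 0.0099). None of the 4 passed in OE against WT.

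Of the 15 JAZ repressor genes, 9 were high enough to test. Against WT 3 rose in the mutant, 0 fell and 6 did not pass, with a median log2 fold change of 0.34. JAZ4 rose by 0.89 (SE 0.17, limma adjusted p = 0.0028), with 59.0, 54.5 and 52.7 FPKM in the mutant, 23.2, 31.6 and 42.3 FPKM in OE and 30.4, 29.1 and 28.7 FPKM in WT. JAZ1 rose by 0.34 (limma adjusted p = 0.021) and JAZ11 by 1.71 (limma adjusted p = 0.038). Against OE, JAZ4 was higher and JAZ6 lower in the mutant, by log2 fold changes of 0.80 and -1.13 (limma adjusted p = 0.0051 and 0.017). Over all tested genes 20.5% were higher and 22.9% lower in that comparison. JAZ6 was at 26.9, 22.3 and 21.2 FPKM in the mutant, 31.9, 46.2 and 95.35 FPKM in OE and 45.6, 39.0 and 38.4 FPKM in WT. In OE against WT 0 of the 9 passed, with a median of 0.59. In the mutant against WT, 3 of 9 JAZ genes and 1 of 4 genes of the receptor list stand as higher beside 19.6% of all tested genes.

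Other genes of the enzyme families were counted by lists of identifiers from general knowledge, whose members are not named in the sources used here. Of 10 further lipoxygenase identifiers 7 could be tested, of which 1 rose and 3 fell in the mutant against WT, with a median log2 fold change of -0.43. Against OE the counts were again 1 and 3. Os12g0559200 and Os03g0179900 shared the order of LOX7 and LOX8, with mutant libraries lowest, OE libraries highest and no overlap. Their means were 15.4 and 19.1 FPKM in the mutant, 41.3 and 31.3 in OE and 21.2 and 26.4 in WT. Of these, only Os03g0179900 passed in the mutant against WT (limma adjusted p = 0.014). No other tested identifier of the list had that order. The share of all tested genes in that order was not computed. Without overlap, 29.4% of them were lower in the mutant against WT and 7.6% higher in OE against WT. Os02g0194700 fell 5.33-fold in mean FPKM against WT (limma adjusted p = 0.031) and Os05g0304600 2.66-fold (limma adjusted p = 0.0017). The smallest adjusted p of the list went the other way. Os03g0700400 rose 3.28-fold in mean FPKM against WT (limma adjusted p = 9.7e-05) and 4.06-fold against OE (limma adjusted p = 4.3e-05). Of 10 further OPR identifiers 3 could be tested, and 1 rose and 1 fell against WT, and 0 rose and 1 fell against OE. The one that rose, Os01g0369700, was 1.74-fold higher in mean FPKM than WT (limma adjusted p = 0.0061). The one that fell, Os01g0369900, averaged 0.569 FPKM in the mutant, 4.18 in OE and 8.37 in WT, 14.7-fold lower than WT. Over all tested genes 19.6% were higher and 22.4% lower against WT, and 20.5% higher and 22.9% lower against OE. A list of 3 identifiers of other synthesis and turnover steps had 1 tested member, which fell in both comparisons of the mutant. That gene, Os01g0221100, averaged 0.112 FPKM in the mutant, 2.97 in OE and 3.79 in WT, 34.0-fold lower than WT. This ratio and that of Os01g0369900 rest on mutant means below 1 FPKM. The 3 identifiers of the competing hydroperoxide lyase branch were all below the tested level. In OE against WT 0 of these tested genes passed.

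**Figure D5:**
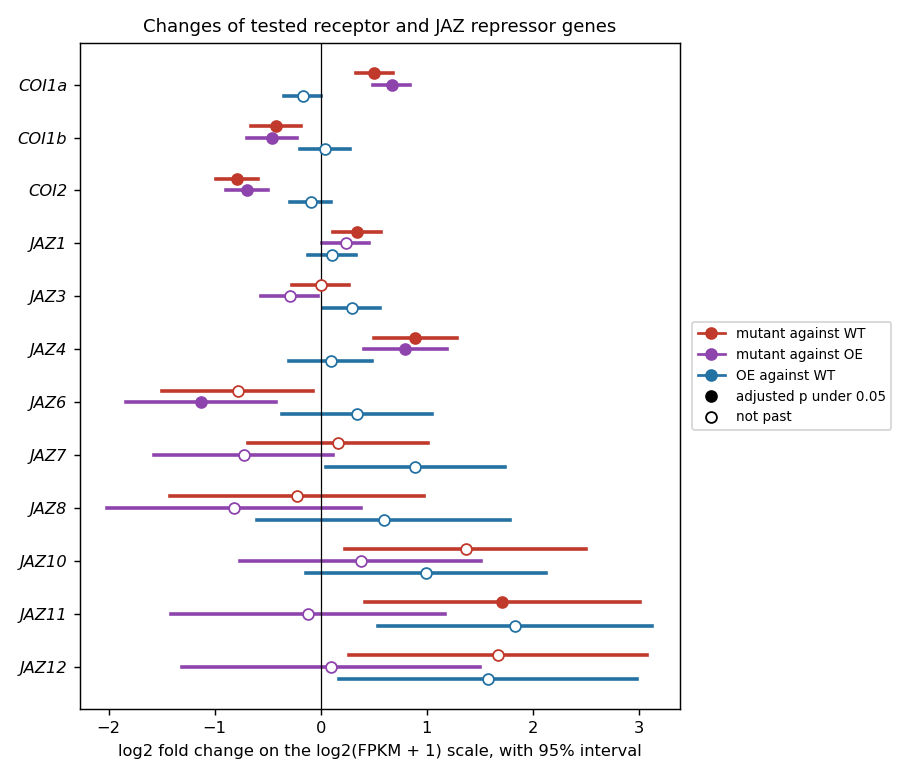
Log2 fold change on the log2(FPKM + 1) scale (x axis) of the 3 receptor genes and the 9 tested JAZ repressor genes in 3 comparisons, with 95% intervals from limma. Filled points passed at adjusted p under 0.05: COI1a is higher and COI1b and COI2 lower in both comparisons of the mutant. JAZ1, JAZ4 and JAZ11 are higher in the mutant against WT, and JAZ4 is higher and JAZ6 lower against OE. No point passed in OE against WT.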

How the data were processed

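RNA of 9 leaf libraries was sequenced after an Illumina TruSeq preparation, per the labels' protocols. Deposited values are FPKM per gene, in 1 column for each library. Another per-sample column matches no sample and was not used. In the submitters' processing notes stand the tools Cuffdiff and Bowtie 0.12.2 and, as build, IRGSP-1.0, with no roles given. The FPKM resolve into whole reads for 30062 of 30062 genes above 0 (relative tolerance 9e-07), which gave the library totals. No 2 libraries of 1 genotype were alike within counting noise (chi-square per gene 6.51 to 17.7).

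Limma 3.58.1 in R 4.3.3 (lmFit, contrasts.fit, eBayes with trend) was run on log2(FPKM + 1), which understates changes of low genes, with 9 libraries in 1 fit, no covariate and two-sided tests adjusted per comparison. The fit was also run on simulated libraries with few changed genes and the same spread for every gene. That setting differs from these data, so it does not show how the fit performs on them. Counting intervals and floors cover counting error only. Members and lists were chosen with earlier results of these data known. All 8 members were described, and from other lists at most 3 genes of smallest adjusted p and genes that make up a small count of calls. Added to these were examples chosen after their values were seen (JAZ6, JAZ8, JAZ12, the ratios, and identifiers of further lipoxygenase, OPR and turnover genes). Names were checked by name, chromosome and relative gene order against the RefSeq table of assembly ASM3414082v1, which 7 of the 8 members met, although the LOX8 entry could belong to the gene called LOX7 here; names of other genes are printed only where they met it. Alternatives were 2 pseudocounts, 2 filters, 2 scalings, a fit of only the 2 groups compared, a replicate block, leaving out each of 9 libraries and, chosen after seeing the data, voom on the recovered reads.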

Additional observations from a re-analysis of the deposited data

How the results depend on the processing

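LOX7 and LOX8 kept their direction and their calls in the mutant under all 18 alternatives, at log2 fold changes of -3.85 to -2.35 and -2.29 to -1.72 against WT and of -4.92 to -3.33 and -3.21 to -2.52 against OE. The count of tested members past the threshold was 0 in OE against WT under all 18. It was 2 to 3 in the mutant against WT when single libraries were left out, and 2 to 4 in the mutant against OE. OPR1 was called higher in the mutant against WT with quantile normalization (adjusted p = 0.049) and with the replicate block (adjusted p = 0.034), and JAR1 with only the 2 groups in the fit (adjusted p = 0.048). The cause was not tested in any of these. Over all tested genes, 46 passed in OE against WT, 29 when only genes averaging 5 FPKM or more were tested, and 27 (without WT replicate 1) to 71 (without OE replicate 1) when single libraries were left out. Those counts in the mutant stayed within 1.5 times of 8333 against WT and 8622 against OE. Voom, chosen after seeing the data, gave 8239 calls between the mutant and WT, 8494 between the mutant and OE and 36 between OE and WT. The replicate numbers share no stated source, and deviations of same-numbered libraries correlated at -0.07 to 0.21, so no pairing was assumed; with the replicate block 3 members passed in the mutant against WT, and over all genes 8318 did so, with 8543 between the mutant and OE and 38 between OE and WT. Planned count-model fits were not run because the deposited values are FPKM. Depth limits AOS1, AOS2 and OPR1, which had at most 57 reads in a library.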
